A study of Homo sapiens with 10 samples.

Results

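HLA class I molecules are the surface proteins that show every nucleated cell's peptides to CD8+ T cells and to natural killer cells, and 9 genes of this system were followed in RNA-seq of untreated endothelial cell lines: HLA-B, HLA-C, HLA-E, B2M, TAP1, TAP2, TAPBP, PSMB8 and PSMB9. They were chosen by name, through the Ensembl identifiers that GENCODE 44 pairs with these symbols, and make up 9 of the 60448 genes listed. All 9 were among the 16310 genes that passed the filter on low counts. The study compared EA.hy926, made by fusing umbilical vein endothelium with the lung carcinoma line A549, with HMEC-1, a dermal microvascular endothelial line immortalized by the SV40 large T antigen. There were 5 libraries of each line, both labelled as wild type and both untreated. EA.hy926 grew in Advanced DMEM with 5% serum. HMEC-1 grew in MCDB 131 with 10% serum and with hydrocortisone (1 μg/mL) and epidermal growth factor (10 ng/mL) added, so that line and medium cannot be told apart in any difference given here. Each line is 1 line and stands for no vessel type on its own. The study's methods describe the replicates of a line as biological and independent.

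Libraries held 34846046 to 39899324 counts for EA.hy926 and 33391640 to 43877224 for HMEC-1. All 10 endothelial markers examined, among them PECAM1, CDH5 and VWF, had at least 10 counts in every library. Their summed level was 4735.5 to 5394.7 in EA.hy926 against 1736.9 to 1788.4 in HMEC-1, in CPM (counts per 1000000, with library sizes scaled by edgeR's trimmed mean of M-values, TMM). The 6 epithelial markers summed to 1274.3 to 1388.1 CPM in EA.hy926 against 423.5 to 485.76 in HMEC-1, with CDH1 at 3 counts or fewer in every library. KRT7, KRT8 and KRT18 carried this sum, while KRT19 was lower in EA.hy926 (0.132 against 3.56 CPM). The 6 leukocyte markers summed to 9.24 to 11.9 CPM in EA.hy926 against 0.694 to 1.15 in HMEC-1, with CD3E and ITGAM at 3 counts or fewer throughout. The 6 fibroblast and mural markers summed to 6.74 to 8.61 CPM in EA.hy926 against 473.8 to 503.53 in HMEC-1. COL1A1 and COL1A2 carried the sum in HMEC-1, while ACTA2 was higher in EA.hy926 (6.26 against 0.973 CPM). The part of these marker differences in the results below was not tested.

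A class I molecule consists of a polymorphic or nonclassical heavy chain, the invariant light chain β2-microglobulin, and a peptide. Proteasomes cut the peptides in the cytosol, the transporter TAP1-TAP2 carries them into the endoplasmic reticulum, and tapasin holds the empty molecule at the transporter until a peptide fits. Interferons raise most of these genes and exchange catalytic subunits of the proteasome for PSMB8, PSMB9 and PSMB10, which gives the immunoproteasome. Endothelial cells carry class I constitutively and are the first donor cells that recipient T cells meet in a transplanted organ.

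Except for B2M, on chromosome 15, the genes lie in the major histocompatibility complex on chromosome 6. In GRCh38, HLA-E (ENSG00000204592) spans chr6:30489509-30494194 on the plus strand, HLA-C (ENSG00000204525) chr6:31268749-31272130 and HLA-B (ENSG00000234745) chr6:31353872-31367067, both on the minus strand. The processing genes form a tight group with TAP2 (ENSG00000204267) at chr6:32821833-32838739, PSMB8 (ENSG00000204264) at chr6:32840717-32844679 and TAP1 (ENSG00000168394) at chr6:32845209-32853816, all on the minus strand, and PSMB9 (ENSG00000240065) at chr6:32844136-32859851 on the plus strand. TAPBP (ENSG00000231925) lies farther on at chr6:33299694-33314284 on the minus strand, and B2M (ENSG00000166710) spans chr15:44711358-44718851 on the plus strand.

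Promoter windows of 300 bases, from 250 before to 50 after the start site, were available from RefSeq (GRCh38.p14) for 8 of the 9 genes. They are the reference's letters and not the alleles of these lines. The windows of HLA-B and HLA-C are shown because these heavy chains were both low in EA.hy926, and that of B2M because it encodes their shared light chain. Capitals mark matches on either strand to the interferon-stimulated response element (ISRE, GAAA and GAAA with any 2 bases between), the gamma-activated site (TTC and GAA with any 3 bases between), the NF-kappaB consensus, TGACG (the core of the cyclic AMP response element) and CCAAT, and adjoining or overlapping matches merge into 1 run.
HLA-B (chr6:31357130-31357429, minus strand): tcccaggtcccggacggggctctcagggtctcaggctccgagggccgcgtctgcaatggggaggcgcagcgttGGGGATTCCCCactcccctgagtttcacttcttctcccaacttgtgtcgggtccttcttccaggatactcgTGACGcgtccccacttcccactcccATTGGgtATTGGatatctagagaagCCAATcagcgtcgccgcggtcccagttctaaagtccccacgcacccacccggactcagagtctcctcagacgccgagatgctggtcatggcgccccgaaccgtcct
HLA-C (chr6:31272043-31272342, minus strand): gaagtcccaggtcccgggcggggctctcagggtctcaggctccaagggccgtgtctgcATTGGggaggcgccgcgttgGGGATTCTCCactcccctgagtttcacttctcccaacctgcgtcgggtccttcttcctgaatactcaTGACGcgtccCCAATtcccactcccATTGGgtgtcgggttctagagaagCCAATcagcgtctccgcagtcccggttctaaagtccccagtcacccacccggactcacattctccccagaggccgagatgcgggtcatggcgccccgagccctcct
B2M (chr15:44711267-44711566, plus strand): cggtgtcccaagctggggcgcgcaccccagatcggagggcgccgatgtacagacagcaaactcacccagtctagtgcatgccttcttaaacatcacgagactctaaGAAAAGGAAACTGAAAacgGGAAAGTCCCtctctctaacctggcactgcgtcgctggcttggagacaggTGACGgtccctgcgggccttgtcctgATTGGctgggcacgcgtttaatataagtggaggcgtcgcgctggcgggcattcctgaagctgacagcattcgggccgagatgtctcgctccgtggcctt

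TAP1 and PSMB9 are transcribed away from each other from start sites 488 bp apart, and their windows are shown because these adjoining genes differed between the lines in opposite directions. The TAP1 window is that of the farther upstream of its 2 start sites.
TAP1 (chr6:32853655-32853954, minus strand): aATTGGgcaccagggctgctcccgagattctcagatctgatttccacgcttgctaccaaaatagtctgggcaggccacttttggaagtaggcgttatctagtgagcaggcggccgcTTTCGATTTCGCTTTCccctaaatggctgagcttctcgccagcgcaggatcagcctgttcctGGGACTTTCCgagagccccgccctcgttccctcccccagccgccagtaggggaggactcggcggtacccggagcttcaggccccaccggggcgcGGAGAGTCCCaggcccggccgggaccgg
PSMB9 (chr6:32853942-32854241, plus strand): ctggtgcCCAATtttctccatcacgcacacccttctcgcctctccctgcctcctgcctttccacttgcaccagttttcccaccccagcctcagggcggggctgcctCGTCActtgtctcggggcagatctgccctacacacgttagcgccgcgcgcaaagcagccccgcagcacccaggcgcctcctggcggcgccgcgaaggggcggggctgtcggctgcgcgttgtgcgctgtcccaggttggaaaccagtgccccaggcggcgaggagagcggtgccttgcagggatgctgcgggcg

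The ISRE letters occurred in windows of B2M, TAP1, TAP2, TAPBP and PSMB8 and in 3.57% of all 35116 promoter windows, but not in those of HLA-B, HLA-C and PSMB9. HLA-B, HLA-C and B2M each held an NF-kappaB consensus match (11.3% of all windows), TGACG (24.6%) and CCAAT (34.6%). The gamma-activated site letters, found in 7.66% of all windows, occurred in 1 window each of TAP1 and PSMB8. A match is a description of letters, and the absence of one says only that these letters are not in this window.

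HLA-B and HLA-C encode the classical heavy chains of the set. In EA.hy926, HLA-B stood at 16.1, 12.4, 13.5, 13.5 and 13.9 CPM in replicates 1 to 5. In HMEC-1 it stood at 64.8, 71.5, 72.9, 70.7 and 68.5 CPM. Every EA.hy926 library thus lay far under every HMEC-1 library, on 412 to 596 counts against 2272 to 3361 counts. The means were 13.9 ± 1.37 and 69.7 ± 3.16 CPM (SD, n = 5), a log2 fold change (log2FC, EA.hy926 over HMEC-1) of -2.33 with a standard error of 0.0511 and an adjusted p of 2.2e-20 in edgeR's quasi-likelihood test with Benjamini-Hochberg adjustment over all genes tested. HLA-B was therefore 5.01-fold higher in HMEC-1, as counted against 1 reference. Whether alleles of HLA-B or HLA-C were counted less completely in either line was not tested.

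HLA-C went the same way by a smaller factor. Its level was 66.7, 58.4, 58.5, 60.7 and 56.7 CPM in the EA.hy926 libraries. The HMEC-1 libraries held 181, 189.6, 178, 182 and 189.7 CPM, again with a wide gap between the lines. Means of 60.2 ± 3.90 and 184 ± 5.28 CPM gave a log2FC of -1.61 (standard error 0.0363, adjusted p = 3.5e-20), or 3.06-fold higher levels in HMEC-1.

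HLA-E, the nonclassical heavy chain that presents leader peptides of other class I chains to the NKG2A receptor of natural killer cells, was higher in EA.hy926. Its CPM was 462, 412, 429.7, 394 and 406 in EA.hy926. In HMEC-1 it was 253, 253, 256, 251 and 259.55. The HMEC-1 libraries lay close together, with a SD of 3.38 CPM against 26.4 CPM in EA.hy926, and the ranges did not overlap. The log2FC was 0.73 (standard error 0.0335, adjusted p = 1.1e-14), a 1.65-fold difference, which passed the test but not the threshold of 1 on the log2 scale that was also required for a call.

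B2M, the light chain shared by all class I molecules, was the most abundant gene of the set in both lines. EA.hy926 libraries gave 703, 669, 639.8, 634 and 642 CPM. HMEC-1 libraries gave 886, 929.6, 916, 881 and 909 CPM. The ranges were separate, and the log2FC was -0.46 (standard error 0.0286, adjusted p = 2.1e-12), so B2M was 1.38-fold higher in HMEC-1.

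TAP1 and TAP2, the subunits of the peptide transporter, were both lower in EA.hy926 by less than the log2FC threshold. TAP1 was at 23.6, 23.9, 24.7, 24.5 and 22.1 CPM in the EA.hy926 libraries, against 31.9, 30.5, 31.7, 32.9 and 32.9 CPM in those of HMEC-1. The log2FC came to -0.43 (standard error 0.0400, adjusted p = 2.0e-09). TAP2 was at 17.3, 14.4, 16.003, 15.6 and 15.8 CPM in the EA.hy926 libraries, against 22.0, 24.9, 25.0, 22.3 and 24.0 CPM in those of HMEC-1. The log2FC came to -0.58 (standard error 0.0529, adjusted p = 1.5e-09). For neither subunit did any EA.hy926 library reach the lowest HMEC-1 library.

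TAPBP encodes tapasin, the chaperone that bridges TAP and the empty heavy chain. It was the only gene of the 9 whose ranges overlapped. The EA.hy926 libraries held 105, 104, 111, 97.0 and 102 CPM and the HMEC-1 libraries 106, 100.4, 107, 102 and 112 CPM. The log2FC of -0.02 (standard error 0.0345, adjusted p = 0.52) did not pass the test. Scaling by library totals gave -0.16 (adjusted p = 0.00019), and leaving out EA.hy926 replicate 4 gave 0.0057, so no direction can be given for TAPBP.

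PSMB8 and PSMB9, the inducible proteasome subunits encoded beside the transporter genes, were higher in EA.hy926. PSMB8 was at 34.0, 35.6, 33.9, 34.7 and 33.2 CPM in the EA.hy926 libraries, against 27.6, 26.2, 29.1, 27.4 and 25.4 CPM in HMEC-1. That is a log2FC of 0.33 (standard error 0.0400, adjusted p = 1.1e-07). PSMB9 was at 23.6, 22.4, 21.0, 23.8 and 22.0 CPM in the EA.hy926 libraries, against 8.13, 7.99, 9.56, 8.27 and 8.32 CPM in HMEC-1. The PSMB9 levels did not approach each other, and the log2FC was 1.41 (standard error 0.0566, adjusted p = 9.1e-16), a 2.66-fold difference.

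**Figure D1:**
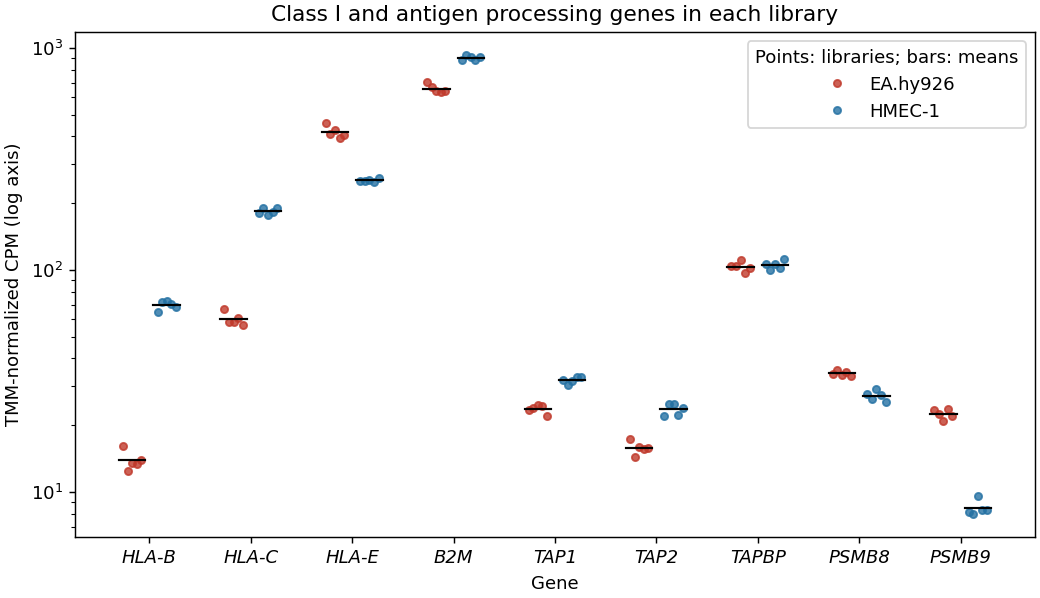
TMM-normalized CPM of each gene (log axis) in the 5 EA.hy926 libraries (red) and the 5 HMEC-1 libraries (blue), with a black bar at each mean. HLA-B and HLA-C lie lower in EA.hy926, PSMB9 lies higher, and the points of the lines overlap for TAPBP.

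Of the 9 genes, 3 passed both thresholds (log2FC above 1 or below -1, and adjusted p under 0.05), of which PSMB9 was higher in EA.hy926 and HLA-B and HLA-C were lower. Over all genes tested it was 35.5%, with 19.1% higher and 16.4% lower, so a count of 3 of 9 was near the background. At the adjusted p alone, 8 of the 9 passed, 3 higher and 5 lower, beside 85.8% of all genes. The ranges of the lines were separate for 8 of the 9, beside 77.4% of all genes. The median log2FC of the set was -0.43, beside -0.01 over all genes tested. The members were thus spread over both directions.

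Per kilobase of exon (the union of all annotated exons), HLA-B, PSMB8 and PSMB9 changed places in the order of the levels between the lines, while HLA-E and HLA-C kept theirs. In EA.hy926 B2M led with 211 ± 9.28 CPM per kb (SD, n = 5), followed by HLA-E (144), HLA-C (24.0), TAPBP (15.6), PSMB8 (9.85), PSMB9 (6.75), TAP1 (5.01), HLA-B (3.00) and TAP2 (1.53), with no overlap in range between neighbours. In HMEC-1 the order was B2M (289.7 ± 6.64), HLA-E (87.1), HLA-C (73.4), TAPBP (15.9), HLA-B (15.1), PSMB8 (7.81), TAP1 (6.75), PSMB9 (2.53) and TAP2 (2.28). There, TAPBP could not be separated from HLA-B by range, nor PSMB9 from TAP2. HLA-B thus ranked 8 of the 9 in EA.hy926 and 5 of the 9 in HMEC-1. These ranks depended on the length used. Per kilobase of the Ensembl canonical transcript, HLA-B ranked 7 in EA.hy926, with a range that overlapped that of TAP1, and 4 in HMEC-1. In HMEC-1, HLA-C then stood above HLA-E, at 119 against 99.9 CPM per kb.

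Among the 3 heavy chains, the balance shifted from HLA-E towards HLA-B and HLA-C in HMEC-1. Per kilobase of exon, HLA-E made up 84.2% ± 0.606 (SD, n = 5) of their sum in EA.hy926 and 49.6% ± 0.602 in HMEC-1. HLA-C made up 14.04% ± 0.564 and 41.8% ± 0.677, and HLA-B 1.75% ± 0.104 and 8.58% ± 0.385. With canonical lengths the HLA-E share was 77.5% in EA.hy926 and 37.7% in HMEC-1, and the HLA-B share 4.24% and 17.1%, so the sizes moved with the length while the direction held.

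Ratios of genes in the same library need no scaling between libraries, and 7 were compared by a two-sided exact permutation test of 5 against 5 libraries, whose smallest possible p is 0.00794, with adjustment over the 7. The HLA-E to HLA-B ratio of counts per kilobase was 45.3, 52.5, 50.2, 46.3 and 46.2 in the EA.hy926 libraries and 6.18, 5.60, 5.55, 5.61 and 5.99 in the HMEC-1 libraries. It was 8.30-fold higher in EA.hy926 (log2 difference 3.05, exact permutation p = 0.00794, adjusted 0.0111). Ratios with HLA-B or HLA-C also depend on how completely the alleles of each line were counted, which was not tested. Of the classical chains, HLA-B was lower in EA.hy926 by more than HLA-C. Their ratio was 0.125 ± 0.00747 in EA.hy926 and 0.205 ± 0.0113 in HMEC-1, a log2 difference of -0.72 (exact permutation p = 0.00794, adjusted 0.0111). B2M relative to the sum of the 3 heavy chains was 1.23 ± 0.0417 in EA.hy926 and 1.65 ± 0.0287 in HMEC-1, a log2 difference of -0.42 (exact permutation p = 0.00794, adjusted 0.0111), which shrank to -0.15 with canonical lengths.

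For the proteasome, each inducible catalytic subunit was set against the constitutive subunit whose place it takes. PSMB9 to PSMB6 was 0.0746, 0.0683, 0.0678, 0.0711 and 0.0661 in EA.hy926 and 0.0244, 0.0238, 0.0304, 0.0262 and 0.0270 in HMEC-1. This 2.65-fold difference (log2 difference 1.41, exact permutation p = 0.00794, adjusted 0.0111) was almost entirely that of PSMB9, as PSMB6 itself had a log2FC of 0.0097 (adjusted p = 0.77, edgeR). PSMB10, the third inducible subunit, stood to PSMB7 at 0.0485 ± 0.00309 in EA.hy926 and 0.0374 ± 0.00174 in HMEC-1, a log2 difference of 0.37 (exact permutation p = 0.00794, adjusted 0.0111). PSMB8 to PSMB5 was 0.179 ± 0.00557 and 0.159 ± 0.0156, and here the ranges overlapped, since HMEC-1 replicate 3 reached 0.183. Its log2 difference of 0.18 (exact permutation p = 0.0397, adjusted 0.0463) lost its call in 9 of 10 repeats with a library left out. Per kilobase of exon the constitutive subunit exceeded its inducible partner in every library of both lines. TAP1 to TAP2 was 3.29 ± 0.270 in EA.hy926 and 2.97 ± 0.240 in HMEC-1, and the log2 difference of 0.15 did not pass (exact permutation p = 0.0873, adjusted 0.0873).

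**Figure D2:**
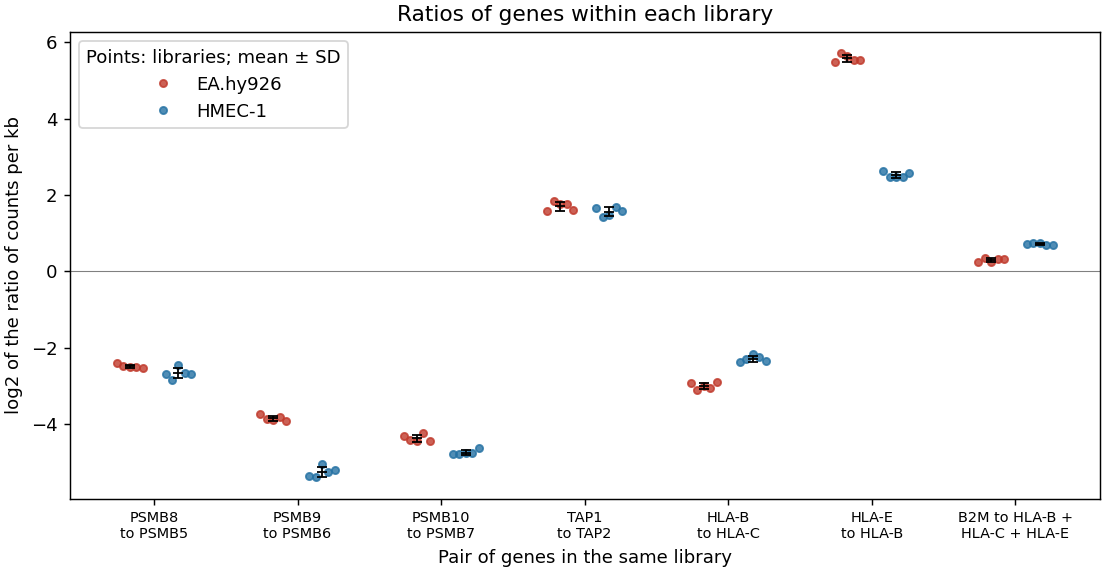
Log2 of the ratio of counts per kilobase of exon for 7 gene pairs, in the 5 libraries of EA.hy926 (red) and of HMEC-1 (blue), with mean and SD in black and a grey line at equal levels. The HLA-E to HLA-B and PSMB9 to PSMB6 points lie higher in EA.hy926, HLA-B to HLA-C and B2M to the heavy chains lie lower, and the points of PSMB8 to PSMB5 and TAP1 to TAP2 overlap.

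Exons of other genes overlap several of these genes, and whether counting used strand is not given in the sources used here. HLA-C, HLA-E and B2M share no exonic base with another annotated gene. PSMB8 shares 17.3% of its exonic bases with PSMB9 and the antisense RNA PSMB8-AS1, TAP1 shares 14.2% with PSMB8-AS1 and PSMB9 shares 5.21%. PSMB8-AS1 itself held 17 to 52 counts per library. HLA-B shares 47.3% of its exonic bases, with genes that held at most 1 count where they were listed, TAP2 shares 19.5% with a readthrough gene at 0 counts, and TAPBP shares 21.0%. For these genes the counts of overlapping transcripts cannot be told apart. Reads in shared bases may also have been left uncounted, which was not tested. Levels per kilobase, ranks, heavy-chain shares and ratios that include these genes carry this limit.

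The other genes of the pathway were taken from 9 lists by role, 102 genes in all, of which 96 were tested and 38 passed both thresholds, 30 higher and 8 lower in EA.hy926. The background over all genes tested was 35.5%, with 19.1% higher and 16.4% lower. Of the 30 higher, 17 came from the interferon-response list and 7 from the class II list, which held 0 lower calls. The limits of these lists are given below, so the pooled shares are no result about the pathway. Among the other class I and class I-like chains, 6 of 7 were tested and 4 passed, 2 in each direction, beside 35.5% of all genes, with a median log2FC of 0.05. HLA-F, a nonclassical heavy chain, was lower in EA.hy926 like HLA-B and HLA-C, with 13 to 23 counts against 53 to 84 counts (log2FC -1.82, standard error 0.172, adjusted p = 2.5e-09). MICB, a stress-induced ligand of the NKG2D receptor, was lower as well (log2FC -1.02, standard error 0.0419, adjusted p = 1.5e-15). MICB lay at the log2FC threshold and lost its call with glmTreat (adjusted p = 0.43, edgeR) and without EA.hy926 replicate 4 (log2FC -0.97). MR1, which presents microbial vitamin metabolites, was higher at 11.8 ± 0.898 against 2.50 ± 0.277 CPM (log2FC 2.23, adjusted p = 3.2e-16). CD1D, which presents lipids, was higher on few reads, 24 to 40 counts in EA.hy926 against 0 in 4 HMEC-1 libraries and 3 in replicate 5. CD1D thus entered the test through EA.hy926 alone and could only be called higher, so the share called in this list rests in part on the filter. HLA-G held 4 counts in 1 EA.hy926 library and 0 in the other 9 libraries and was not tested.

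Of the 7 peptide loading genes beyond tapasin, all passed the adjusted p (4 higher, 3 lower in EA.hy926). Both thresholds were passed by 1 of the 7, beside 35.5% of all genes, with a median log2FC of 0.12. The gene past both was TAPBPL, the tapasin-related editor TAPBPR, which stood at 31.9, 30.7, 33.3, 33.3 and 31.6 CPM in the EA.hy926 libraries, against 4.22, 3.36, 3.69, 4.05 and 4.29 CPM in HMEC-1. All EA.hy926 libraries lay above all HMEC-1 libraries, and TAPBPL was 8.22-fold higher in EA.hy926 (log2FC 3.04, standard error 0.0594, adjusted p = 2.8e-21). The lectin chaperones and the oxidoreductase of the loading complex differed by less than the log2FC threshold, with -0.13 for CALR, 0.36 for CANX and -0.43 for PDIA3.

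Of the 7 peptide-trimming proteases, 2 passed both thresholds, a share near the 35.5% of all genes. They were ERAP1 and ERAP2, the aminopeptidases of the endoplasmic reticulum. ERAP1 stood at 156 ± 5.00 CPM in EA.hy926, against 68.1 ± 2.26 in HMEC-1. This ERAP1 difference was 2.30-fold (log2FC 1.1996, adjusted p = 1.9e-19). ERAP2 stood at 28.6 ± 1.86 and 7.86 ± 0.833 CPM (log2FC 1.86, standard error 0.0640, adjusted p = 5.8e-17). The ranges of both were separate. The other 5 proteases stayed within the threshold, and the list's median was 0.18.

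None of the 5 genes of the inducible proteasome and its activator list passed both thresholds in edgeR, DESeq2 or limma-voom, although all 5 passed the adjusted p in edgeR. PSMB10 was at 9.11 ± 0.649 CPM in EA.hy926, against 5.52 ± 0.122 in HMEC-1 (log2FC 0.72, adjusted p = 1.9e-09), and 39.4% of its exonic bases lie in another gene, which held 5 to 28 counts per library. PSME1 and PSME2, the subunits of the interferon-inducible activator PA28, had log2FC values of 0.48 and 0.69. POMP, the maturation factor that assembles new proteasomes, had -0.88 and passed the threshold with library totals, alone among the alternatives run. The constitutive 20S core gave 0 of 14 past both thresholds in these 3 tools. The adjusted p was passed by 11, 7 of them higher and 4 lower in EA.hy926, or 5 higher and 6 lower with library totals. PSMA1 and PSMA6, among the 7, and PSMA2 stood at only 10.2, 1.19 and 2.99 CPM in EA.hy926. PSMB5, the lowest of the rest, stood at 85.4 CPM. These 3 genes share 26.7%, 14.1% and 29.7% of their exonic bases with other genes, and reads lost there were not tested. Its catalytic members had log2FC values of 0.16 for PSMB5, 0.0097 for PSMB6 and 0.34 for PSMB7.

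Regulators of class I transcription did not move as a group: 2 of 21 passed both thresholds, both lower in EA.hy926, beside 16.4% of all genes, with a median log2FC of -0.09. NLRC5, the transactivator of class I genes, was at 22.4, 18.8, 21.8, 22.3 and 20.7 CPM in the EA.hy926 libraries, against 21.4, 19.7, 20.8, 21.4 and 18.8 CPM in HMEC-1. Its ranges overlapped and its log2FC of 0.05 did not pass (adjusted p = 0.34). IRF1, a transcription factor induced by interferon-γ, had a log2FC of 0.42 (adjusted p = 1.6e-08). RFXAP, a subunit of the RFX complex that binds HLA promoters, stood at 4.13 ± 0.604 CPM in EA.hy926, against 14.6 ± 0.556 in HMEC-1 (log2FC -1.82, adjusted p = 2.4e-15). IFNGR1, the ligand-binding chain of the interferon-γ receptor, stood at 21.5 ± 0.923 and 70.0 ± 2.72 CPM (log2FC -1.70, adjusted p = 2.4e-20).

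Interferon-response genes, in contrast, were higher in EA.hy926 as a list: 17 of 20 passed both thresholds, all higher, beside 19.1% of all genes. Their median log2FC was 3.30, and the alternatives gave 12 to 17 calls. Genes near 0 in HMEC-1, such as IFI44L, entered the test through EA.hy926 alone and could only be called higher. As the list was chosen with earlier results of these data known, its share is no independent result. EA.hy926 replicate 1 was the highest library of its line for 19 of the 20, and 17 were called without it. IFI44 stood at 80.4 ± 2.60 CPM in EA.hy926, against 3.17 ± 0.255 in HMEC-1. UBE2L6, which conjugates ISG15, stood at 93.8 ± 5.64 and 16.3 ± 1.12 CPM. IFI44L held 1208 to 2136 counts in EA.hy926, against 0 to 2 in HMEC-1. MX1, OAS3 and GBP1 did not reach the log2FC threshold, with 0.42, 0.45 and 0.62. HLA-B and HLA-C were thus low in the line in which most of these genes were high, while PSMB9, ERAP1, ERAP2 and TAPBPL were high in the same line.

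**Figure D3:**
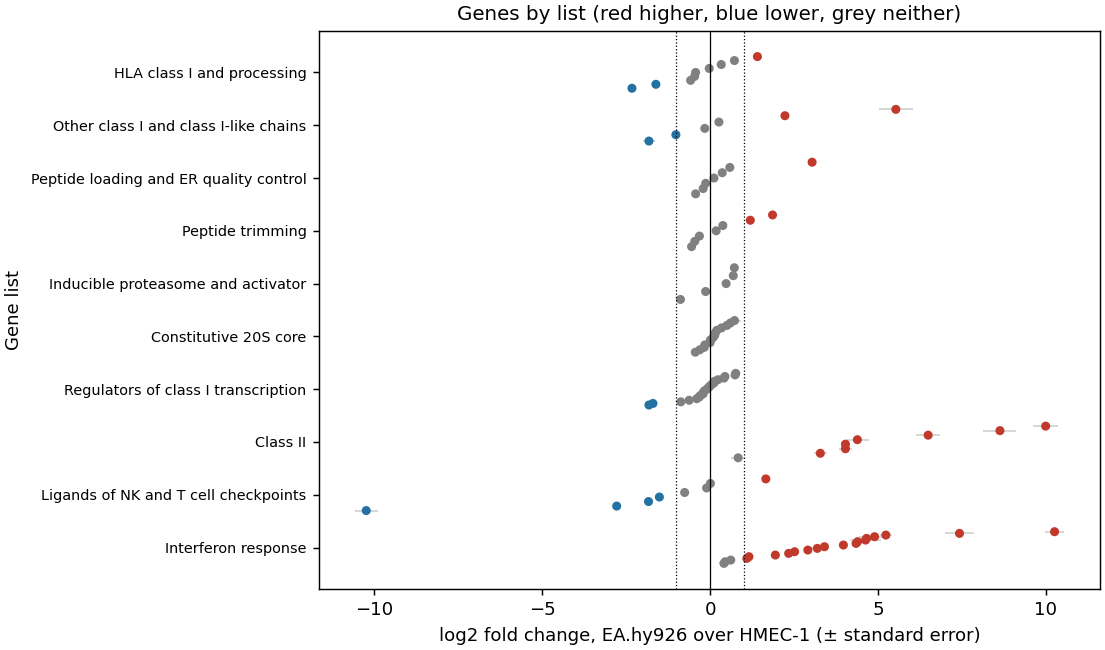
Log2FC of EA.hy926 over HMEC-1 with its standard error for each gene tested, 1 row of points per list, with dotted lines at the thresholds and red, blue and grey for genes called higher, lower or neither. The class I and processing genes lie on both sides of 0, the 20S core lies within the thresholds, and the interferon-response genes lie to the right of 0.

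Position was examined next, because 8 of the 9 genes lie in 1 region. From the start of HLA-F to the end of TAPBP, 104 other genes were tested and 39 passed both thresholds, and of these 33 were lower in EA.hy926 and 6 higher. That put 31.7% lower, beside 16.4% over all genes tested and 23.4% of the 666 other genes tested on chromosome 6. The log2FC was below 0 for 87 of the 104, with a median of -0.66, beside -0.30 for the other genes of chromosome 6 and -0.01 for all genes. From HLA-F to MICB, the stretch that holds HLA-E, HLA-C and HLA-B, 19 of 43 genes were lower and 2 higher, with a median of -0.78. Between MICB and HLA-DRA, 11 of 43 were lower and 0 higher, with a median of -0.60. From HLA-DRA to TAPBP, which holds the processing genes, 3 of 18 were lower and 4 higher, with a median of -0.33. The 4 higher genes were HLA-DRA, HLA-DRB1, HLA-DPA1 and HLA-DPB1, class II genes at or near 0 counts in HMEC-1. These entered the test through EA.hy926 alone and could only be called higher. HLA-L, HCP5 and POU5F1, among the lower genes, held 1 to 6, 1 to 4 and 1 to 2 counts in EA.hy926. They entered through HMEC-1 alone and could only be called lower. The shares called in the region therefore rest in part on the filter. Where every library needed 10 counts, 24 calls were left between HLA-F and TAPBP. Among the 53 genes with under 5% of their exonic bases in other genes, 19 were lower and 5 higher. HLA-B and HLA-C lay below the median of their surroundings, while HLA-E, PSMB8 and PSMB9 were above 0 among neighbours that were mostly below it. The number of gene copies in each line was not measured.

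**Figure D4:**
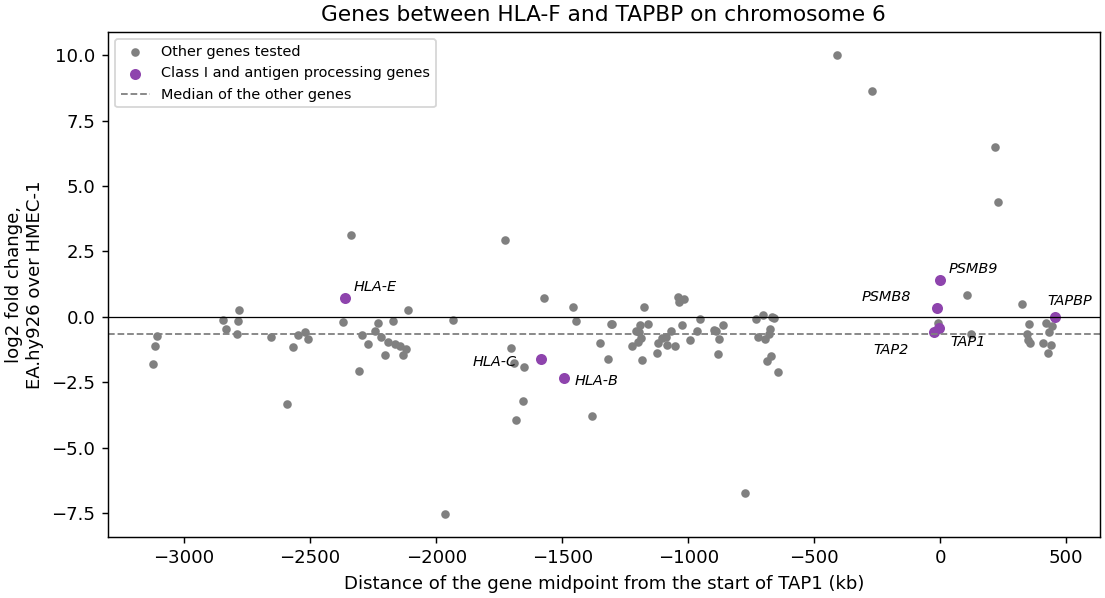
Log2FC of EA.hy926 over HMEC-1 for the genes tested from HLA-F to TAPBP, against the distance of each gene's midpoint from the start of TAP1 in kb; purple points are the class I and processing genes, grey points the 104 others, and the dashed line the median of the others (-0.66). Most grey points lie below 0, HLA-B and HLA-C lie below the dashed line, and HLA-E, PSMB8 and PSMB9 lie above 0.

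The genes whose log2 CPM followed HLA-B most closely over the 10 libraries were MTRF1L, TNFRSF1B and BGN, with Pearson r of 0.9993, 0.9991 and 0.999 among the 12983 genes that no library counted fewer than 10 times. The points share the split into lines, and 1281 genes had an r above 0.99, so this likeness describes the difference between the lines rather than variation within them.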

How the data were processed

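Poly(A) RNA from 5 libraries each of EA.hy926 and HMEC-1 was sequenced by the authors. The values they deposited are raw read counts per gene, not normalized. The submitters' processing notes name GRCh38, fastp, HISAT2, featureCounts and DESeq2, whereas the paper's methods name HTSeq for the counting. Versions, annotation release and strand setting are not given in the sources used here. HLA genes are highly polymorphic, and reads were aligned to 1 reference, so alleles far from it may be counted less completely, which was not tested. No column of the table went unused.

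Symbols, coordinates and exon lengths came from GENCODE 44 by Ensembl identifier (56434 of 60448 matched, 93.4%), and promoter windows from RefSeq (GRCh38.p14). The counts passed through edgeR 4.0.16 (R 4.3.3): filterByExpr with a minimum count of 10 and a minimum total of 15, TMM factors, glmQLFit, and glmQLFTest with line as the only term. Adjusted p-values (Benjamini-Hochberg) cover every gene tested. Standard errors were derived from the F statistic, as the log2FC without its sign over the root of F. Ratios used a pseudocount of 0.5 on each count. At these depths 3 counts make 0.0651 to 0.0904 CPM. A bound for a gene at 0 in a whole line sets the other line's mean CPM against 3 counts in the library where these weigh most.

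Alternatives were DESeq2 1.42.0, limma-voom (limma 3.58.1), DESeq2's median-ratio (RLE) factors, library totals, other filters, glmTreat, a replicate block and each library left out. Scripts were tested on simulated data. No library pair looked like a repeat. The members and lists were chosen with earlier results of these data known. All 9 members, all list genes past both thresholds and a few defining genes of each step could be named, together with the 3 genes most like HLA-B. Remaining names of list genes under the threshold, and PSMB8-AS1, were chosen after their values were seen. For 2 genes of the lists nothing is reported here, and they enter no count of a list or of the region.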

Additional observations from a re-analysis of the deposited data

Results flagged for a closer look

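Libraries standing apart from the other 4 of their line by Dixon's test (95% level) were found for 9 of 117 sets of 5 values checked, where chance gives about 1 in 20, or 5.85. Among the class I and processing genes only PSMB9 was concerned, with HMEC-1 replicate 3 at 9.56 CPM above the others at 7.99 to 8.32 CPM, a level still far under every EA.hy926 library. Of the within-library ratios, PSMB10 to PSMB7 stood at 0.0404 in HMEC-1 replicate 5, above 0.0361 to 0.0370 in the others.

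EA.hy926 replicate 1 was the highest library of its line for 19 of the 20 interferon-response genes, and for 5 of them it stood apart by the test. These were IFI6 at 206 CPM (others 111 to 138), IFI44L at 57.8 CPM (32.6 to 39.2), OAS2 at 95.9 CPM (64.6 to 70.6), XAF1 at 3.30 CPM (1.78 to 2.19) and IFI35 at 32.9 CPM (28.0 to 29.4). In the same library 5 of the 9 class I and processing genes, HLA-B, HLA-C, HLA-E, B2M and TAP2, were also at the highest CPM of their line, although none of these 5 stood apart by the test. The calls of the class I and processing genes were the same without this library. IRF1 was lowest in EA.hy926 replicate 2, at 29.2 CPM against 31.2 to 31.7 CPM, and PVR was highest in EA.hy926 replicate 5, at 100.51 CPM against 87.3 to 90.6 CPM.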

How the results depend on the processing

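The 3 calls among the class I and processing genes were made under all 18 alternatives, and 151 of 153 alternative log2FC values kept their direction and their side of the test. Both exceptions were TAPBP, at -0.16 with library totals and 0.0057 without EA.hy926 replicate 4, within a range of -0.057 to 0.0057 when each library was left out. Library totals moved the median of all genes by -0.13. The number of genes past both thresholds in the whole table was 5784, and 3255 where every library needed 10 counts, 9312 with no filter and 5945 to 6000 with a library left out, counts that follow from how many genes enter the test. Requiring 10 counts everywhere left 1 class II call and 24 calls between HLA-F and TAPBP, by dropping genes near 0 in 1 line. The alternatives for this region were added after the data were seen. Library totals gave 1 call, POMP, in the inducible proteasome list. Over all lists, 177 of 180 alternative counts stayed within 1.5 times, and the total of 38 calls became 25 where every library needed 10 counts. The PSMB8 to PSMB5 difference ranged from 0.14 to 0.23 with a library left out.

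Replicate numbers did not pair the libraries: deviations of same-numbered libraries correlated by -0.0228 to 0.0389. With the number as a replicate block, the paired exact sign-flip test cannot go below p = 0.0625, so it could pass none of the 7 ratios. The log2 differences under this pairing were 0.18 for PSMB8 to PSMB5 (adjusted p = 0.146, exact), and 1.41 for PSMB9 to PSMB6, 0.37 for PSMB10 to PSMB7, -0.72 for HLA-B to HLA-C, 3.05 for HLA-E to HLA-B and -0.42 for B2M to the heavy chains (adjusted p = 0.0875 each, exact). In edgeR the replicate block changed no call of the 9 genes.

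Limits are the confounding of line with medium, 1 line per type, unknown strand setting and reference-based counting of polymorphic genes. Genes with few counts, such as HLA-F, CD1D and the class II genes, are measured least precisely.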

Other observations

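Class II genes normally serve professional antigen-presenting cells, and several had low but separate levels in EA.hy926. Of 13 listed, 8 were tested, and the ranges of the other 5 overlapped near 0. Of the 8, 7 passed both thresholds, all higher in EA.hy926 (19.1% of all genes tested were). The median log2FC of the 8 was 4.21, or 4.03 with genes at 0 in HMEC-1 set to their bound. HLA-DRA, HLA-DRB1, HLA-DPA1 and HLA-DPB1, at or near 0 in HMEC-1, entered the test through EA.hy926 alone and could only be called higher. CIITA and CD74 lay under the minimum count in some HMEC-1 libraries. Where every library had to reach the minimum count, 1 class II call was left. The share called higher can therefore not be weighed against that of all genes. HLA-DRA held 111 to 143 counts in the EA.hy926 libraries and 0 in all HMEC-1 libraries, at least 39.1-fold higher, and HLA-DRB1 held 40 to 56 counts against 0, at least 15.2-fold higher. HLA-DPA1 held 71 to 82 counts against 0 to 3, and HLA-DPB1 32 to 56 against 1 to 6. CIITA, the class II transactivator, stood at 4.62 ± 0.297 CPM in EA.hy926, against 0.281 ± 0.154 in HMEC-1, and CD74, the invariant chain, at 2.75 ± 0.207 and 0.282 ± 0.0897 CPM. CTSS, a protease that trims the invariant chain, stood at 27.3 ± 1.61 and 1.65 ± 0.219 CPM. The summed leukocyte markers were higher in EA.hy926 as well (9.24 to 11.9 against 0.694 to 1.15 CPM), with CD3E and ITGAM at 3 counts or fewer everywhere, and their part in these values was not tested.

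Surface ligands that restrain or engage natural killer and T cells went mostly the other way. Of 8 tested, 4 were lower and 1 higher in EA.hy926 past both thresholds (16.4% and 19.1% of all genes tested), with a median log2FC of -1.13. ULBP1, 1 of the 4, entered the test through HMEC-1 alone and could only be called lower, so the share called lower rests in part on the filter. CD274, which encodes PD-L1, stood at 4.20 ± 0.294 CPM in EA.hy926, against 28.9 ± 0.758 in HMEC-1 (log2FC -2.78, edgeR adjusted p = 2.6e-21). PVR, a ligand of TIGIT and DNAM-1, stood at 91.0 ± 5.46 and 324 ± 8.86 CPM (log2FC -1.83, edgeR adjusted p = 1.5e-21). Of the NKG2D ligands, ULBP1 held 0 counts in all EA.hy926 libraries and 144 to 177 in HMEC-1, at least 43.8-fold lower in EA.hy926, and ULBP2 had a log2FC of -1.51. CD47, the signal against phagocytosis, was higher in EA.hy926, at 181.68 ± 3.07 against 57.4 ± 2.03 CPM (log2FC 1.66, edgeR adjusted p = 2.3e-22).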
